A study of Mus musculus with 4 samples.

Results

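The microRNAs (miRNAs) mmu-miR-451, mmu-miR-144 and mmu-miR-486 are abundant in red blood cells and their precursors, and they were examined here as a gauge of how much blood the dissected tissue held. They are 3 of the 750 miRNAs assayed, and they were taken by assay name. The plates held mouse-named assays of miR-451 and miR-486. miR-144 had no mouse-named assay, so the human-named one, hsa-miR-144, stands for it. Synovium, the tissue that lines joints, was dissected from the region of the tibiotalar (ankle) joint of C57BL/6J mice. The model was serum transfer arthritis, in which serum of arthritic K/BxN mice causes joint inflammation in the recipient. The 2 non-arthritic pools held tissue of 3 mice each from day 0, and the 2 arthritic pools tissue of 10 mice each from day 10, the peak of inflammation. Each pool was read in 2 wells by TaqMan real-time PCR, in which the Ct is the cycle at which a well's signal crosses a threshold. A lower Ct means more RNA.

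miR-451 and miR-144 come from neighbouring genes that are transcribed together in erythroid cells under the factor GATA1. miR-451 is unusual because its precursor is too short for Dicer and is cut by Argonaute 2 instead, whereas miR-144 is made by Dicer. miR-486 lies within Ank1, the gene of an ankyrin of the red cell skeleton, and besides red cells it is made in skeletal and heart muscle, so it reports on both tissues. Mature red cells lack a nucleus but keep these miRNAs. Blood left in a dissected tissue therefore brings them into its RNA. In plasma, miR-451 is commonly set against miR-23a to detect haemolysis.

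The sequences of miR-451 and miR-144 are shown with those of miRNAs they were compared with, so that shared seeds can be seen. miR-486, miR-1 and miR-133a are named only. Mature sequences are from RefSeq on GRCm38.p6, printed 5′ to 3′ with the seed (bases 2 to 8) in capitals. 13 of the 16 assays looked up matched an entry there. Mir486 overlaps Ank1 in that annotation.
miR-451a: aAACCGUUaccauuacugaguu
miR-144-3p: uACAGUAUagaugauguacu
miR-16-5p: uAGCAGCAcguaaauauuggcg
miR-15b-5p: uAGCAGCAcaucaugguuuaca
miR-92a-3p: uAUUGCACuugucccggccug
miR-25-3p: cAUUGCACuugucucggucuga
miR-93-5p: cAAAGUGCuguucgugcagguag
miR-23a-3p: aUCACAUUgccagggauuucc
miR-223-3p: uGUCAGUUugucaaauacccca
miR-206-3p: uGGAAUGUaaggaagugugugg
miR-133b-3p: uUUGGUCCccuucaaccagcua
miR-451a lies at chr11:78073186-78073207 and miR-144-3p at chr11:78073047-78073066, both on the + strand. Among 1679 mature names in RefSeq, 1 name, its own, carries the seed of miR-451a, and the same holds for miR-144-3p. By contrast the seed of miR-16 and miR-15b is carried by 10 names and that of miR-92a and miR-25 by 6. Neither miR-451a nor miR-144-3p shares its 7-base seed with another miRNA shown above. The nearest to miR-144-3p is miR-101a-3p, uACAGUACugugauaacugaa, which has the same bases 2 to 7.

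The hairpins show how differently the neighbouring genes are built, with the mature miRNA in capitals.
Mir144: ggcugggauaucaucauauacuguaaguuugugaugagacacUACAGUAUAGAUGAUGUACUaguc
Mir451a: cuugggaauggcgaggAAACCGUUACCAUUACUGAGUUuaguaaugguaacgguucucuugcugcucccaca
Mir144 spans chr11:78073005-78073070 (66 bases) and Mir451a chr11:78073170-78073241 (72 bases), with 99 bases between them. In the structure predicted by RNAfold the loop of the Mir451a hairpin takes bases 35 to 38, and the mature miRNA, at bases 17 to 38, runs through all 4 of them. The mature miR-144 lies at bases 43 to 62, wholly past its predicted loop at bases 31 to 36.

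Arthritic pool 2 stood apart from the other pools. It had a Ct for 223 of the 750 miRNA assays, where arthritic pool 1 had one for 271 and the non-arthritic pools for 294 and 287. Its median Ct over the panel A assays common to every pool was 15.9, and the other pools lay between 12.5 and 12.8. On chip A3, which holds miR-451, the second listed well of arthritic pool 2 gave a Ct for 24 assays against 36 in the other well. Its median Ct over the 24 assays read in every well of that chip was 18.005 against 12.78, and in the other 3 pools this median lay between 10.96 and 11.87. For miR-451, the pairs of chip A3 and, in part, the marker lists, values without this pool or well are given beside the main ones.

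miR-451 was read in all 8 wells. Its Ct was 11.96 and 12.06 in the wells of non-arthritic pool 1, 11.36 and 11.65 in non-arthritic pool 2, and 11.86 and 11.26 in arthritic pool 1. In arthritic pool 2 it was 14.88 and 18.15. The first 3 pools thus lay within 1 cycle of each other, and both wells of arthritic pool 2 were later, with a difference of 3.27 cycles between them. In the other pools the wells differed by 0.102, 0.289 and 0.608 cycles.

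**Figure D1:**
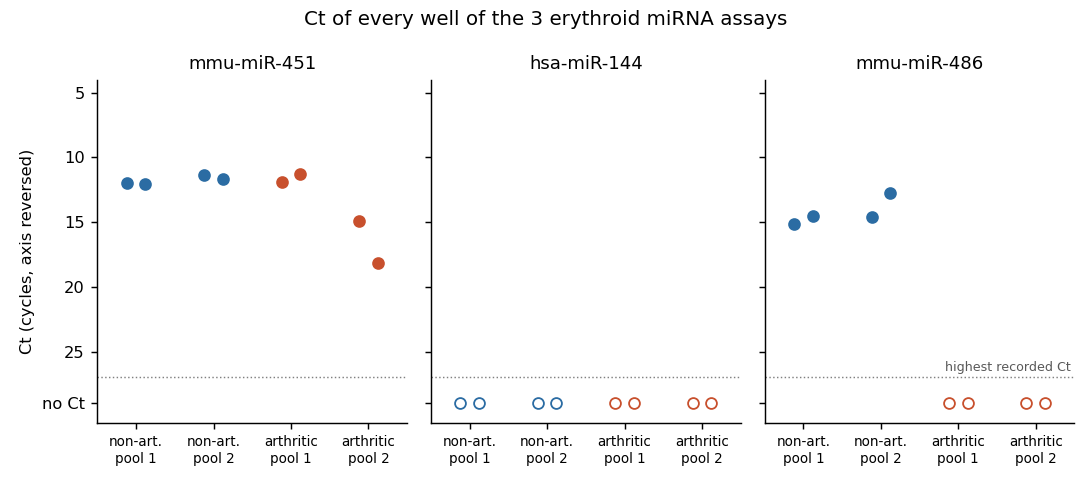
Ct of each of the 8 wells (points, 2 per pool, y axis reversed so that more RNA is higher) for the 3 erythroid assays. Open circles are wells without a Ct and the dotted line is the highest recorded Ct, 26.997. miR-451 was read in every well, miR-486 in the non-arthritic wells and miR-144 in none.

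To compare pools, a level was taken as the median Ct of the panel in that pool minus the Ct of the assay, in log2 units, with 1 cycle counted as a doubling. For miR-451 the level was 0.62 in non-arthritic pool 1, 1.31 in non-arthritic pool 2, 0.98 in arthritic pool 1 and −0.61 in arthritic pool 2. Arthritic pool 1 lay between the non-arthritic pools and arthritic pool 2 below them, so the groups overlapped. By rank of Ct, with the earliest assay first, miR-451 was 82nd of 294 and 78th of 287 assays in the non-arthritic pools, 67th of 271 in arthritic pool 1 and 102nd of 223 in arthritic pool 2.

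The mean level of miR-451 was 0.97 ± 0.49 before arthritis and 0.18 ± 1.13 at day 10 (SD over 2 pools per group). The log2 change was −0.78 ± 0.87 (SE), with a 95% confidence interval from −2.92 to 1.35 and a limma adjusted p of 0.513. The interval spans a fall and a rise, and the difference was smaller than the spread between the arthritic pools. In the same fit 45 of the 209 assays detected in all 4 pools passed an adjusted p of 0.05, a background of 21.5%. That count was 0 without either non-arthritic pool (42 and 25 at an unadjusted p under 0.05), and 121 and 97 without arthritic pools 1 and 2 (limma). In each of these fits the group left with 1 pool takes its spread from the other group and the prior. 43 of the 209 had a smaller change in size than miR-451. The exact permutation test over pools, two-sided, gave p = 0.667, and with 2 pools per group it cannot go below 0.333. In bulk tissue, fewer cells of a type and less RNA per cell cannot be told apart.

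Against the panel median, the sign of the miR-451 change rested on arthritic pool 2. The control RNA references below were not combined with leaving out that pool. Without that pool the log2 change was 0.54 (limma adjusted p = 0.495), a fit in which the lone arthritic pool is assumed to vary like the others, and without the second listed well of that pool on chip A3 it was −0.24 (adjusted p = 0.801). Measured against the median of its own chip in the same well row, which takes out what a whole well shares, miR-451 stood at −0.73 and −0.26 (non-arthritic pools 1 and 2) and at 0.13 and −1.12 (arthritic pools 1 and 2). The group means there were −0.49 ± 0.33 and −0.50 ± 0.89 log2 units (SD over 2 pools per group). Over 22 alternative settings the log2 change ran from −3.64 to 0.54, and it did not pass in any of them (adjusted p 0.0709 to 0.995). With the control RNAs as reference it was −3.64 (U6), −3.53 (U6 and both snoRNAs) and −3.47 (both snoRNAs), each at an unadjusted limma p under 0.05. Without arthritic pool 1 the change was −1.53.

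**Figure D2:**
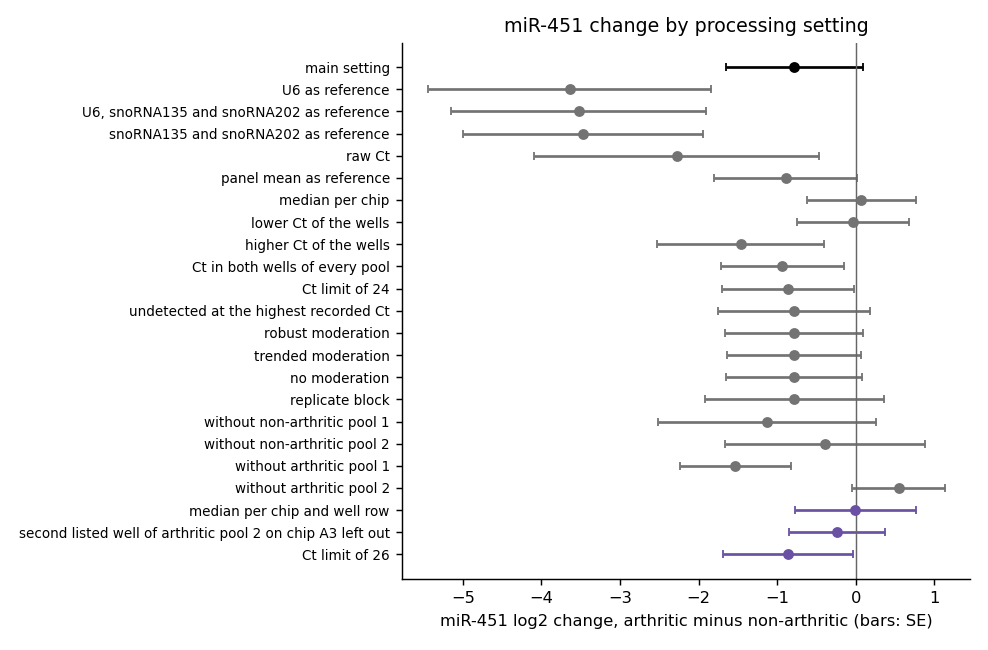
Log2 change of miR-451 (x axis, arthritic minus non-arthritic, bars are SE) in the main setting (black), 19 alternatives (grey) and 3 chosen after seeing the data (violet). The largest falls, near −3.6, come with the control RNAs U6, snoRNA135 and snoRNA202 as reference, and 2 settings lie above 0.

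The lowest values came from the control RNA references, which did not move as the panel did. With U6, the small nuclear RNA of the spliceosome, the miR-451 change was −3.64, and the median change of all 209 assays was −2.51 on that scale against 0.19 on the main scale. On chip A2, the chip of panel A that holds them, mean Ct of U6 went from 7.61 and 6.56 before arthritis to 5.78 and 5.67 at day 10. snoRNA135 went from 22.004 and 22.5 to 18.6 and 19.6, and snoRNA202 from 9.21 and 8.19 to 9.41 and 9.45. Their panel B wells, on chip B2, differed from these: U6 stood at 5.55 and 4.59 before arthritis and 4.87 and 5.07 at day 10, snoRNA135 at 17.57 and 17.56 and then 16.7 and 18.1, and snoRNA202 at 7.88 and 6.13 and then 9.34 and 9.96. Relative to the median of all assays, miR-451 thus lay about 1 log2 unit lower on both of these scales.

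miR-486, on chip A2, was read in every non-arthritic well and in no arthritic well. Its Ct was 15.17 and 14.50 in non-arthritic pool 1 and 14.57 and 12.73 in non-arthritic pool 2, and none of the 4 wells of the arthritic pools gave a Ct. The wells of the non-arthritic pools differed by 0.669 and 1.85 cycles. Its level was −2.20 and −0.83 (mean −1.52 ± 0.97, SD, n = 2 pools), and it ranked 126th of 294 and 110th of 287 assays by Ct. It was therefore a miRNA of middle abundance. By the mean of the wells it was higher in non-arthritic pool 2, but in Ct the wells overlapped: the 14.57 of pool 2 lay between the wells of pool 1.

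Because miR-486 had no arthritic Ct it had no test in the main fit. If an undetected well stands for a Ct at or past the highest one recorded, 26.997, then the arthritic level of miR-486 lay at least 11.26 log2 units, or 12.8 raw cycles, below the non-arthritic one. The bound carries no p, since a filled Ct would itself set the size of the fall and its spread. Of the 90 miRNA assays of chip A2, 40 and 39 gave a Ct in the wells of arthritic pool 1 and 34 in each well of arthritic pool 2, against 47 to 50 in the non-arthritic wells.

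The loss of miR-486 was set beside all other assays. Of 275 assays with a Ct in both non-arthritic pools, 27 (9.82%) gave none in any arthritic well. On chip A2 it was 8 of 48. miR-486 had the earliest non-arthritic Ct of the 27. After it came miR-194, of liver and gut, at a mean Ct of 14.8, miR-1897-3p at 15.5, read in 3 of 4 wells, and miR-511, of macrophages, at 16.7. Of 118 assays with a mean non-arthritic Ct no later than its own, 1 (0.847%), miR-486 itself, had no arthritic Ct. Since that limit is its own Ct, the share is a description. In the opposite direction, 4 assays were read in both arthritic pools alone. That count required a Ct in arthritic pool 2, the pool with the fewest assays read, and no share was taken. It therefore cannot be weighed against the 27.

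miR-144 gave no Ct in any of the 8 wells, so no level, bound or change can be given. The human-named assay sits on chip B1, where 36 of 96 miRNA assays gave a Ct in at least 1 well, and 12 of the 23 human-named ones did. 425 of the 750 assays gave none anywhere. Whether the assay reads the mouse miRNA was not tested here. miR-101a, with the same bases 2 to 7, was read at a mean Ct of 22.1 before arthritis, in both pools, and had no Ct at day 10. Its relative miR-101b was read in all 8 wells, at a mean Ct of 17.4 and 16.5 before arthritis and 19.9 and 24.2 at day 10.

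The members thus gave different patterns in the same pools. Before arthritis miR-486 came after miR-451, by 2.83 cycles in pool 1 and 2.14 in pool 2. In arthritic pool 1 miR-451 kept a Ct of 11.6 while miR-486 and miR-144 had none. The muscle miRNAs followed the order of miR-486 between the non-arthritic pools: from pool 1 to pool 2 the Ct went from 21.5 to 16.97 for miR-1, from 22.6 to 20.8 for miR-133b, from 7.33 to 5.95 for miR-206 and from 4.71 to 4.09 for miR-133a. Over the same pair miR-486 went from 14.8 to 13.6 and miR-451 from 12.01 to 11.5. The order was not particular to muscle. Of the other listed miRNAs, miR-92a, miR-25, miR-93, miR-15b, miR-23a, miR-142-3p, miR-150, miR-181a, miR-126-3p and miR-126-5p also came earlier in pool 2. miR-16, miR-223, miR-342-3p, miR-199a-3p and miR-214 came later there. With 1 value per pool these differences have no test, and the part of muscle in the miR-486 result was not tested.

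miR-23a, the usual partner of miR-451 in a haemolysis ratio, gave a ratio in the non-arthritic pools alone. Its Ct minus that of miR-451 was 6.70 and 6.37 (mean 6.53 ± 0.23, SD, n = 2 pools), and it gave no Ct in the 4 arthritic wells. The wells of miR-23a in non-arthritic pool 2 were far apart, at 21.53 and 14.22. With the lower Ct of each pair of wells the mean difference was 4.76 cycles and with the higher 8.30. Its paralog miR-23b, chosen after its values were seen, was read in all pools, and its Ct minus that of miR-451 was 2.17 and 2.57 before arthritis and 6.04 and 3.80 at day 10. Both arthritic values lay above the non-arthritic ones. With the lower Ct of the wells they did so too, at 2.13 and 2.24 before arthritis and 6.30 and 4.84 at day 10. With the higher Ct the value of arthritic pool 2, 2.75, lay below the 2.90 of non-arthritic pool 2, so the groups then overlapped. That 2.75 used the later miR-451 Ct of arthritic pool 2, 18.15, from the well with a Ct for 24 assays. The 3.80 from the mean of the wells includes that Ct as well. How large a share of all assays separates the groups in this measure was not counted. The ratio was developed in plasma, and no cut-off for tissue was applied.

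miR-451 shares chip A3 with 7 of the listed miRNAs, so each could be set against it in the same well row with no reference RNA. Of the 23 other assays of that chip read in all 8 wells, 8 came later against miR-451 in the arthritic pools and 15 earlier, with a median shift of −1.47 cycles and a range from −5.54 to 6.28. In 13 of the 23 (56.5%) the arthritic and non-arthritic wells did not overlap. All pairs share the wells of miR-451, so their shifts are not independent of each other.

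miR-16, which is plentiful in red cells but made by most cells, had a Ct minus that of miR-451 of −4.84 and −3.94 cycles in the non-arthritic pools, so that it came first, and of 0.89 and 1.62 cycles at day 10, when it came second. The shift was 5.64 cycles, or 4.54 without the low-yield well, and the wells did not overlap. The muscle miRNA miR-133a went from −7.31 and −7.41 cycles to −0.67 and −1.49 cycles, a shift of 6.28 cycles, or 5.50 without that well. Relative to miR-451, both thus came later in each arthritic pool than in either non-arthritic pool.

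Other miRNAs of the chip came earlier against miR-451. miR-15b, with the seed of miR-16, went from 2.82 and 2.93 cycles against miR-451 to 0.60 and −2.92 cycles, a shift of −4.04 cycles (−4.12 without the low-yield well). miR-223, a marker of neutrophils and the wider myeloid lineage, went from −3.72 and −2.75 cycles to −4.21 and −7.36 cycles, a shift of −2.55 cycles (−1.85 without that well). In miR-92a, another miRNA rich in red cells, the shift was −2.12 cycles (−1.90 without that well), and its wells overlapped between the groups. miR-150, of mature lymphocytes, and miR-199a-3p, of fibroblasts, overlapped as well, with shifts of 1.21 and −0.091 cycles. Without the low-yield well these 2 shifts were 0.796 and −0.449 cycles. 4 of these 7 miRNAs, miR-16, miR-15b, miR-133a and miR-223, had wells that did not overlap, a share close to the 56.5% of the chip. The exact permutation test over pools gave p = 0.333, the smallest it can give, for the 5 whose pool means did not overlap (these 4 and miR-92a), 0.667 for miR-150 and 1 for miR-199a-3p.

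**Figure D3:**
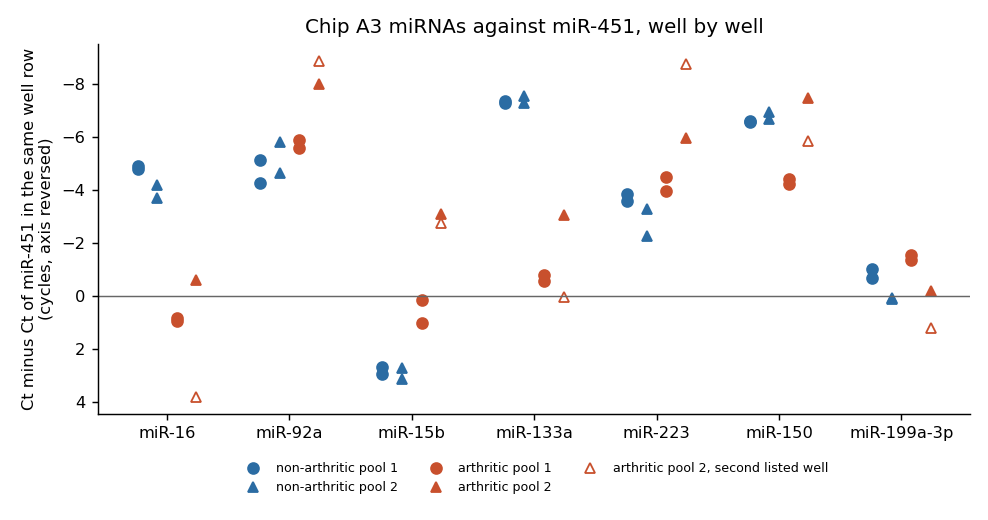
Ct of 7 miRNAs of chip A3 minus the Ct of miR-451 in the same well row (y axis, cycles, reversed), 2 wells for each of 4 pools. The open triangles are the second listed well of arthritic pool 2. miR-16 and miR-133a lie lower in the arthritic wells (orange) than in the non-arthritic wells (blue), miR-15b and miR-223 lie higher, and miR-150 and miR-199a-3p overlap.

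Against the panel median, miR-16 was the one miRNA to pass the test among the others that red cells hold in plenty. Of the 6 listed, 5 were tested, of which 1 fell and 4 did not pass, with a median log2 change of 1.34 against 0.19 over all 209 assays. 1 of 5 is close to the 21.5% over all assays. The count depended on the pools: 3 rose and 1 fell without arthritic pool 1, 2 rose and 1 fell without arthritic pool 2, and 0 passed in limma without either non-arthritic pool. The list medians of these 4 fits were 1.94, 1.32, 0.73 (without non-arthritic pool 1) and 1.99 (without non-arthritic pool 2). Levels of miR-16 were 5.46 and 5.25 before arthritis and 0.085 and −2.23 at day 10, so that it fell by 6.43 ± 0.98 log2 units (limma adjusted p = 0.0122, SE over pools). Its wells in arthritic pool 2 were far apart, at Ct 14.29 and 21.98, the later being the low-yield well. The direction of the fall held in 22 of 22 alternatives, with changes from −9.28 to −4.56, and the call in 17. It was lost on raw Ct, with the panel mean, with no moderation and without either non-arthritic pool (adjusted p up to 0.365).

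The other 4 tested had log2 changes of 3.25 ± 0.92 for miR-15b (adjusted p = 0.0558), 2.66 ± 0.87 for miR-25 (0.0750), 1.34 ± 0.86 for miR-92a (0.272) and 0.85 ± 0.73 for miR-93 (0.384). miR-92a and miR-25 belong to one seed family, and miR-25 and miR-93 are made from one transcript, which proliferating cells of many kinds use. With the control RNAs as reference miR-25, miR-92a and miR-93 had changes below 0, and the median of the list was −1.52 with U6. miR-363 gave no Ct in any well.

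Markers of other cell types in the tissue moved beside the members as follows. Of the 4 skeletal muscle miRNAs, miR-133a fell by 7.07 ± 0.78 log2 units (SE, limma adjusted p = 0.00421) and passed in 19 of 22 alternatives, all but those with no moderation or without either non-arthritic pool. Over the alternatives its change ran from −9.92 to −5.55. Its wells in arthritic pool 2 were at Ct 11.83 and 18.22, the later being the low-yield well. For miR-206, by its human-named assay, the change was −2.41 ± 0.87 (adjusted p = 0.0931), and it passed as a fall without either arthritic pool. Like miR-486, both miR-1 and miR-133b were read in each of the 4 non-arthritic wells and missing from the 4 arthritic ones. Of the 275 assays with a Ct in both non-arthritic pools, 27 (9.82%) had no arthritic Ct, miR-194 and miR-511 among them.

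The myeloid list went the other way. miR-142-3p, a miRNA of white blood cells, rose by 3.83 ± 0.97 log2 units (limma adjusted p = 0.0402), a call that held in 7 of 22 alternatives. The call was lost without either non-arthritic pool and without the low-yield well. It passed with 0 of 7 other references, where the lowest change was 0.97. Raw Ct of miR-142-3p was 15.6 and 15.5 before arthritis and 10.4 and 16.0 at day 10, so it came earlier in arthritic pool 1 alone. For miR-223 the change was 1.77 ± 0.85 (adjusted p = 0.150), and it turned negative when control RNAs were the reference and passed as a rise without arthritic pool 1. miR-142-5p gave a Ct in 1 non-arthritic and 2 arthritic wells and was not tested.

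In the lymphoid list 0 of 3 passed in limma, with 2 of 3 at an unadjusted p under 0.05. The changes were −1.99 ± 0.79 for miR-150 (adjusted p = 0.105), −2.34 ± 1.07 for miR-342-3p (0.136) and 2.43 ± 0.75 for miR-181a (0.0686). With each of the 3 control RNA references 2 of 3 fell, miR-150 and miR-342-3p. Without arthritic pool 1, 1 rose, and without arthritic pool 2, 1 rose and 1 fell. In the endothelial and platelet list 0 of 2 passed (1 at an unadjusted limma p under 0.05), with −2.38 ± 0.74 for miR-126-3p (0.0686) and −2.02 ± 1.03 for miR-126-5p (0.176). Both fell with U6, with the snoRNAs and without arthritic pool 1. 1 of 2 fell with all 3 control RNAs, with the panel mean, with a Ct required in both wells, without the low-yield well and without arthritic pool 2. Both fibroblast miRNAs were read in all 4 pools and 0 of 2 passed (1 at an unadjusted limma p under 0.05), with 2.32 ± 0.85 for miR-214 (0.0936) and −0.69 ± 1.25 for miR-199a-3p (0.703). Without arthritic pool 1, 1 rose and 1 fell. With control RNAs as reference miR-181a and miR-214 had changes below 0, and with the medians per chip miR-199a-3p had one above 0. The medians were −4.74 for the muscle, 2.80 for the myeloid, −1.99 for the lymphoid, −2.20 for the endothelial and platelet and 0.81 for the fibroblast list, so that the −0.78 of miR-451 lay between them. With U6 as reference the myeloid median was −0.057 and the fibroblast median −2.04. With each pool left out the fibroblast median ran from 0.21 (without arthritic pool 1) to 2.00 (without arthritic pool 2). The lymphoid median was −0.92 without arthritic pool 1 and the endothelial and platelet one −1.20 without arthritic pool 2. Without the low-yield well the lymphoid median was −1.03, the muscle one −4.07 and the myeloid one 2.59. Without arthritic pool 2 the muscle median was −4.18 and the myeloid one 3.51. Their part in the values of the erythroid miRNAs was not tested.

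**Figure D4:**
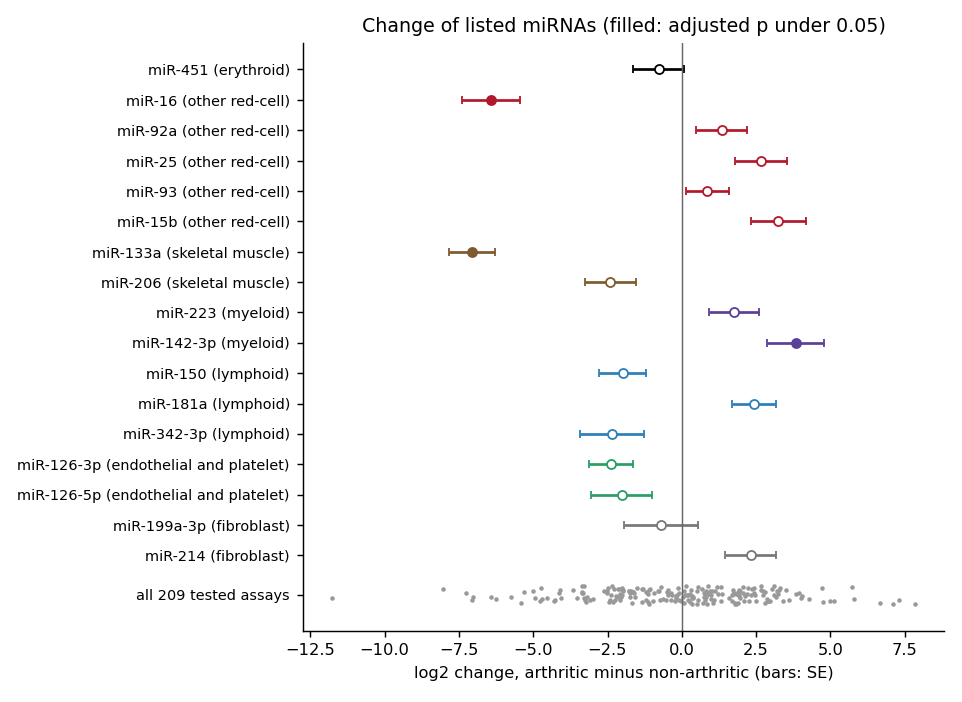
Log2 change (x axis, arthritic minus non-arthritic, bars are SE) of miR-451 and of the tested miRNAs of each list, above all 209 tested assays (grey points). Filled points passed a limma adjusted p of 0.05: miR-16 and miR-133a on the low side and miR-142-3p on the high side. miR-451, at −0.78, is open and lies within the grey cloud.

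The assays whose levels followed miR-451 most closely over the 4 pools were none of the listed red-cell miRNAs. Likeness was the root mean square difference of levels after each assay was centred on its own mean. The closest were miR-10b on chip B4, of the Hox gene clusters, at 0.21 log2 units, miR-218-1# at 0.27, miR-503# at 0.30, the second miR-10b assay, on chip A3, at 0.32 and the human-named miR-744# at 0.39 (# marks a passenger strand). The median over the 208 other tested assays was 1.44. These are descriptions over 4 pools that share plates and depth.

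In the authors' deposited table, in which an undetected group is listed at 0, miR-451 is listed at 10.995 for the non-arthritic group and 10.7 for day 10, a difference of −0.31 and a fold of 0.805. The authors' deposited table lists miR-486 at 10.54 and 0, a difference of −10.54 and a fold of 0.000671. It holds 174 rows, with 19 of the 24 listed miRNAs among them.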

How the data were processed

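Total RNA was isolated with a mirVana kit and reverse transcribed with a TaqMan kit, per the labels' protocols. The deposited plates hold raw Ct values, per the file headers, with 999 where a well has none. The thresholds behind them were not given in the sources used here. The authors also deposited group averages and differences, taken from the values as log2, and a fold (ratio) column, by a normalization not given in the sources used here.

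Wells were averaged per pool. A pool counted as detected with 1 well under a Ct of 35, a limit that no recorded Ct reached. Assays detected in all 4 pools (209) were fitted with limma 3.58.1 in R 4.3.3 (lmFit, eBayes, two-sided, no pairing) with Benjamini-Hochberg adjustment at 0.05 over all of them. The prior had 4.02 degrees of freedom beside 2 residual. Control RNAs were left out of the fit. Precision is limited by the 2 pools per group, biological replicates per the labels. The wells of a pool carry no numbers in the files, so wells were matched between assays of a chip by their listed order.

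The miRNAs and lists were chosen with earlier results of these data known. Named were the members, the listed markers, the control RNAs, the 5 assays most like miR-451 and the 3 assays of lowest non-arthritic Ct among those without an arthritic Ct. miR-23b and miR-101a were added after seeing the data. Alternatives were other references, well rules, Ct limits, moderation, a replicate block and each pool left out. Sequences are from RefSeq (GRCm38.p6), and hairpins were folded with RNAfold 2.7.2. Figures were drawn with matplotlib 3.10.9.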

Additional observations from a re-analysis of the deposited data

How the results depend on the processing

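The miR-451 change did not pass in any of 22 alternatives. Its main log2 value of −0.78 was reversed with the median per chip (0.072) and without arthritic pool 2 (0.54), and with each pool left out in turn it ran from −1.53 to 0.54. With a replicate block it was −0.78 (limma adjusted p = 0.618). The count of assays that passed, 45, was 8 on raw Ct, 25 with the panel mean, 22 with the higher Ct of the wells and 66 with the replicate block. It was 0 with no moderation in limma, where 55 assays had an unadjusted p under 0.05. With each pool left out it ran from 0 to 121: 0 without either non-arthritic pool (42 and 25 at an unadjusted limma p under 0.05), 121 without arthritic pool 1 and 97 without arthritic pool 2. The split of 20 higher and 25 lower calls became 1 and 54 with U6, 3 and 47 with all 3 control RNAs, 4 and 54 with both snoRNAs and 0 and 8 on raw Ct. The pool numbers are shared labels only: same-numbered pools deviated together with r = 0.0738 over 209 assays, so the block is no evidence of pairing. The conditional bound of miR-486, 11.26, was 14.1 with U6, 14.001 with the 3 control RNAs, 13.9 with both snoRNAs, 12.8 on raw Ct and 8.33 with a Ct limit of 24. The other 8 alternatives moved it by less than the spread between pools. The miR-23a to miR-451 difference of 6.53 cycles was 4.76 with the lower and 8.30 with the higher Ct of the wells. The cause of these shifts was not tested. The median per chip and well row, the well left out on chip A3 and the Ct limit of 26 were chosen after seeing the data. The low number of pools, and for miR-144 and the arthritic miR-486 the range of recorded Ct, limit what could be detected.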
